A study of Mus musculus with 2 samples.

Results

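The lymphocytes of a mouse melanoma are described here as the cells that the authors of the data placed under the label NK_cells. The label was taken as deposited, and it covered 229 of the 7815 cells, with 178 cells in one library and 51 in the other. The label goes against the counts: 1 or more UMIs (unique molecular identifiers, 1 per captured transcript) of the T-cell receptor genes Cd3e, Cd3d or Trac were present in 199 of the 229 cells, so the cells are called lymphocytes below and not NK cells.

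The tumours came from YUMM3.3, a Braf-mutant, Cdkn2a-/- mouse melanoma line. NTT was the line naive to targeted therapy, and RTT a subline of it made resistant to a BRAF inhibitor and kept in culture with the inhibitor dabrafenib. Cells were injected under the skin of C57BL/6 mice, and live CD45+ cells, the marker of all leukocytes, were sorted by flow cytometry 12 days later according to the series record, while the study's methods give another day for its tumour single-cell experiments. Each library held 1 tumour according to the series record, so a difference between NTT and RTT has no replicate check and cannot be told apart from a difference between tumours, mice or libraries. No p-value is given for this reason. Intervals are 95% intervals for counting error alone: exact Clopper-Pearson intervals for shares, Newcombe intervals for differences of shares, and exact binomial intervals for ratios of UMI counts.

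T cells recognise antigen through an alpha and a beta chain, with constant parts encoded by Trac, Trbc1 and Trbc2, and signal through the CD3 chains Cd3d, Cd3e and Cd3g. The coreceptor CD8, a pair of chains encoded by Cd8a and Cd8b1, marks T cells that read MHC class I and kill through granzymes and perforin, while CD4 marks helper and regulatory T cells that read MHC class II. NK cells kill through the same granules but lack a rearranged receptor, and are known by NKp46 (Ncr1), NK1.1 (Klrb1c) and Ly49 receptors (the Klra genes). In tumours, T cells that meet antigen for long express PD-1 (Pdcd1), TIM-3 (Havcr2), TIGIT and the factor Tox, and lymphocytes of every kind switch on interferon-stimulated genes when they sense type I interferon or interferon gamma.

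The lymphocytes held 1326872 UMIs in NTT, with a median of 5358.5 per cell, and 368690 in RTT, with a median of 3967. Of all cells, 7 barcodes occurred in both libraries, and none of them was a lymphocyte. A single RTT cell of 54395 UMIs, which carried Cd8a, held 14.8% of the RTT lymphocyte UMIs. Levels are given as CPM, the UMIs of a gene per 1000000 UMIs of the same cells. Macrophage transcripts moved with the RTT library: the 8 macrophage markers summed to 771 CPM in NTT and 4953 CPM in RTT, with cells between 0 and 27106 CPM and between 0 and 32908 CPM. C1qa, a complement component of macrophages, reached 1000 CPM in 4 RTT cells and in no NTT cell. The 4 neutrophil markers stood at 166 and 678 CPM, and 1 RTT cell with Cd4 held 98% of the RTT sum. The melanoma marker in the matrix was at 0 UMIs in both libraries, and 3 of the 4 fibroblast markers were at 0 in each. The 4 mast cell markers had 75 and 0 UMIs, the 6 B and plasma cell markers 50.5 and 46.1 CPM and the 7 dendritic cell markers 628 and 971 CPM, of which 1 RTT cell held 66.5%. Their part in the values given here was not tested except where a result is given without the cells concerned.

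The genes that set these cells apart from the other 7586 sorted cells were those of both T cells and killer lymphocytes. Because the authors' clustering used these genes, the folds describe the label and test nothing. The 5 given markers stood far above the rest, with values averaged over both libraries. Cd3g, a CD3 chain, stood at 1725 CPM against 0.466 CPM in other cells, a 3701-fold difference. Perforin (Prf1) was 1339-fold, the granule protein Nkg7 1188-fold, granzyme B (Gzmb) 673-fold and Trac 551-fold higher. The 15 highest folds, from 1207 to 5413, fell to the chemokine Xcl1, the chains Cd3g, Cd3e and Cd3d, Ifng and Prf1. They also fell to the granzymes Gzma, Gzmc, Gzmd, Gzme and Gzmf and the protease inhibitor Serpinb9b. The T-cell signalling protein Themis, the receptor Cd160 and the adaptor Sh2d1a completed them. Gzmc, Gzmd, Gzme and Gzmf lie in the same stretch of chromosome 14 (GRCm38, 56117626 to 56234656) and are close copies, so counting could split their reads.

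Most of these cells carried T-cell receptor genes and not the NK receptor gene Ncr1. Cells with 1 or more UMIs of Cd3e, Cd3d and Trac summed, called TCR-positive, made up 86.0% (153 of 178, 80.0 to 90.7) of NTT and 90.2% (46 of 51, 78.6 to 96.7) of RTT lymphocytes. The same 3 genes gave a UMI in 2.41% of NTT and 0.402% of RTT macrophages, which should lack them, at median depths of 8228.5 and 8674 UMIs. Shares in macrophages leave out, here and below, a population that the authors named Ctsk_Macro, with 280 RTT cells of which 23.2% held a Trac UMI, and with it the share of RTT macrophages with a receptor UMI was 2.00% (80 of 4009). Few cells lay near the limit, since 149 NTT and 43 RTT cells held 3 or more receptor UMIs. Ncr1, the receptor NKp46, gave a UMI in 20 of 25 TCR-negative NTT cells but in 4 of 153 TCR-positive cells. In RTT the counts were 3 of 5 and 1 of 46. The receptor and the Ncr1 counts were thus nearly exclusive of each other in both libraries. This did not hold for every receptor of NK cells. In NTT, Klrd1 stood at 1100 CPM in TCR-positive and 2123 CPM in TCR-negative cells, and Klrk1 at 394 and 1592 CPM. The TCR-negative cells with Ncr1 were a minority of the label.

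**Figure D1:**
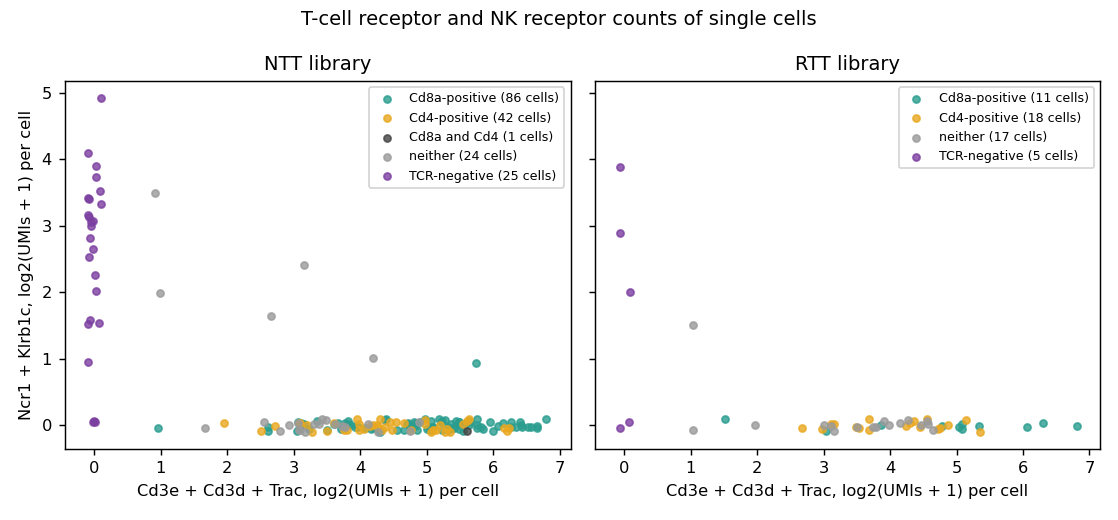
Each point is 1 lymphocyte, placed by the summed UMIs of Cd3e, Cd3d and Trac (x axis) and of Ncr1 and Klrb1c (y axis), both as log2(UMIs + 1) with a small random shift, for NTT (left) and RTT (right) and coloured by class. The 25 NTT and 5 RTT cells without receptor UMIs stand at 0 on the x axis, most with NK receptor UMIs, and nearly all other cells lie on the x axis.

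The beta chain constant gene Trbc1 broke this division. It gave UMIs in 24 of 25 TCR-negative NTT cells and in 4 of 5 TCR-negative RTT cells, although Trac was at 0 in all of them by definition. Trbc1 stood at 708 CPM in TCR-negative NTT cells, against 1632 CPM in Cd8a-positive and 355 CPM in Cd4-positive NTT cells. Its neighbour Trbc2 was found in 13 of 25 TCR-negative NTT cells, and Cd3g, which the division did not use, in 2 of 25. Macrophages gave a Trbc1 UMI in 0.515% of NTT cells, far below the share of TCR-negative cells with one. With Cd3g, Trbc1 and Trbc2 added to the 3 genes, the share with a receptor UMI was 99.4% in NTT and 98.0% in RTT. Trbc1 and Trbc2 are near-identical copies, and how their reads were divided is uncertain.

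The TCR-negative NTT cells carried the genes of NK cells. Ncr1 stood at 902 CPM in TCR-negative and 5.77 CPM in TCR-positive cells (log2 ratio -7.29, -8.64 to -6.19). Granzyme A (Gzma) stood highest in level among the 8 genes with the largest ratios, at 7429 against 344 CPM (-4.43, -4.60 to -4.26). The signalling adaptors Tyrobp, at 3732 against 203 CPM, and Fcer1g, at 3511 against 428 CPM, carry the signals of activating NK receptors. Xcl1, the chemokine that draws cross-presenting dendritic cells, stood at 2061 against 129 CPM, and the survival factor Bcl2 at 761 against 50.3 CPM. The Ly49 receptors Klra4 (log2 ratio -5.87) and Klra7 (-3.09) completed these 8 genes, and members of the Klra family share sequence, so their division is uncertain. Of the list of NK receptors and regulators, 13 of 20 counted members were 2-fold or more higher in TCR-negative cells, beside 8.58% of all 4687 genes. Between classes of a library, genes and list members were both counted with 50 or more UMIs in the cells compared. Between the libraries, list members were counted with 20 or more UMIs.

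On the T-cell side, the genes that the division did not use pointed the same way in NTT. The coreceptor chains Cd8b1, with 1033 UMIs, and Cd8a, with 971, were at 0 UMIs in the 25 TCR-negative cells, which makes them at least 5.0 and 4.91 higher on the log2 scale against a floor of 3 UMIs over the class. OX40 (Tnfrsf4), a costimulatory receptor of activated T cells, had 1255 UMIs against 0 (at least 5.28), and Gzmf 1576 against 0 (at least 5.61). In RTT, Tnfrsf4 was again at 0 in TCR-negative cells with 410 UMIs in TCR-positive cells, while Gzmf had 102 UMIs in 1 TCR-negative cell and 49 in TCR-positive cells. Of the regulatory T-cell list all 7 counted members were 2-fold or more higher in TCR-positive NTT cells, and of the checkpoint and exhaustion list 10 of 15, beside 12.6% of all genes. The cytotoxic granule list had 3 members higher and 4 lower of 16, with a median of 0.15, so both kinds of lymphocyte carried granule genes and differed in which.

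The 5 TCR-negative RTT cells give little to describe. Of the 3 with Ncr1, the cells of 22566 and 9169 UMIs also held 179 and 42 UMIs of C1qa, so 2 of the 5 cells carried macrophage RNA, against 0 of 25 in NTT. The cell of 22566 UMIs alone held 61.2% of the UMIs of the class. Of 1482 genes, 302 (20.4%) were 2-fold or more higher and 86 (5.80%) lower in TCR-positive RTT cells, and without the cells with C1qa the counts were 93 and 181. Granzyme C was abundant in these cells, with 997 UMIs in 5 of 5 cells (27048 CPM), of which the cell of 9169 UMIs with C1qa held 79.1%, against 3493 CPM and 9 of 25 cells in NTT. The chemokine Ccl5 showed the opposite, with UMIs in 21 of 25 NTT cells (4669.8 CPM) and in 0 of 5 RTT cells.

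Lymphocytes were a smaller share of the RTT than of the NTT library, and cells with Cd8a were the class with the largest fold. The TCR-positive cells were split by their UMIs of Cd8a and Cd4 into Cd8a-positive, Cd4-positive and neither, which are ranges of counts and not cell types. Cd8a-positive cells were 2.89% (86 of 2975, 2.32 to 3.56) of the sorted NTT cells and 0.227% (11 of 4840, 0.114 to 0.406) of the sorted RTT cells, 12.7-fold fewer. For Cd4-positive cells the shares were 1.41% (42 of 2975, 1.02 to 1.90) and 0.372% (18 of 4840, 0.221 to 0.587), 3.8-fold fewer. Cells with neither were 2.30-fold fewer, at 0.807% and 0.351%, and TCR-negative cells 8.13-fold fewer, at 0.840% and 0.103%. A share of sorted cells also moves with the number of the other sorted cells, and fewer lymphocytes and more macrophages cannot be told apart here.

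The make-up of the TCR-positive cells, which does not depend on the other leukocytes, held a smaller share of cells with Cd8a in RTT. Cd8a gave a UMI, alone or in 1 NTT cell beside Cd4, in 56.9% (87 of 153, 48.6 to 64.8) of TCR-positive NTT cells and 23.9% (11 of 46, 12.6 to 38.8) of TCR-positive RTT cells, a difference of -32.9 percentage points (-45.5 to -16.8). Cd4 gave a UMI in 28.1% and 39.1%, a difference whose interval ran from -3.8 to 26.8 points. Cells with neither were 15.7% and 37.0% (7.20 to 36.5 points higher in RTT). Depth bears on this split, since cells with neither held a median of 2928 UMIs in NTT and 2419 in RTT, against 7066 and 10157 in Cd8a-positive cells. With each cell thinned to 2000 UMIs, which left out 14 NTT and 10 RTT lymphocytes, Cd8a was found in 53.2% (44.6 to 61.7) of 139 NTT and 22.2% (10.1 to 39.2) of 36 RTT cells. Cd4 was found in 17.3% and 16.7% at that depth, so no difference in Cd4 was detectable. Macrophages, which can transcribe Cd4 themselves, gave a Cd4 UMI in 6.70% of NTT and 0.912% of RTT cells, and a Cd8a UMI in 0.515% and 0.0805%.

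Cd8b1, which the split did not use, followed Cd8a. It gave a UMI in 83 of 86 Cd8a-positive NTT cells and in 11 of 11 RTT cells, but in 3 of 24 and 3 of 17 of the cells with neither. The genes for both chains neighbour each other on chromosome 6 of GRCm38 (Cd8b1 at 71322788 to 71337494 and Cd8a at 71373427 to 71379173).

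**Figure D2:**
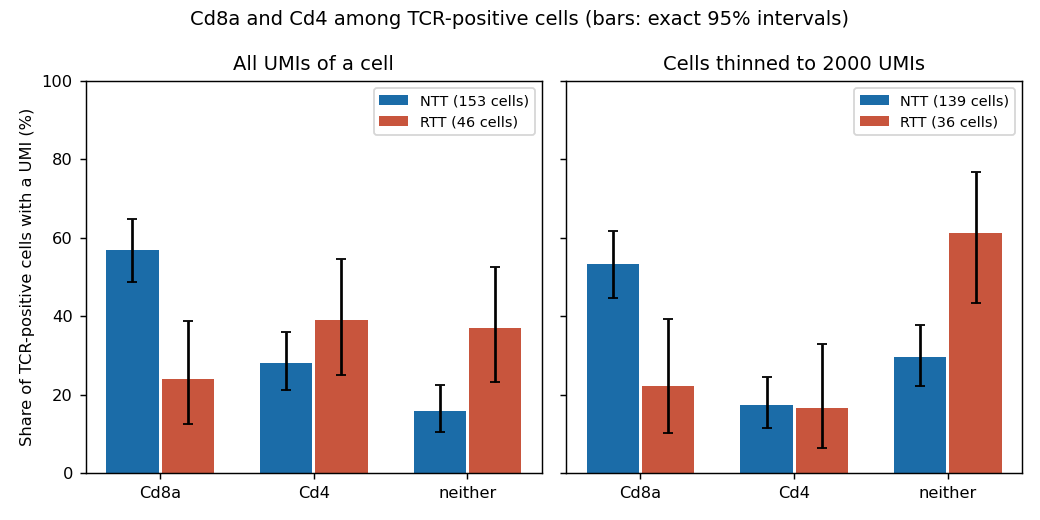
Bars give the percentage of TCR-positive cells with a UMI of Cd8a, of Cd4 or of neither in NTT and RTT, with exact 95% intervals for counting error, from all UMIs of a cell (left) and with each cell thinned to 2000 UMIs (right; the legends give the number of cells). The Cd8a intervals of the libraries do not overlap in either panel, whereas the Cd4 intervals do.

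Within each library the Cd8a-positive cells carried the killing genes. In NTT, the lectin receptor chains Klrk1 (NKG2D) and Klrd1 (CD94) stood almost wholly with Cd8a, at 439 against 1 UMIs (log2 ratio 7.51, 5.02 to 12.81) and 1259 against 4 UMIs (log2 ratio 7.03, 5.67 to 8.90), and so did the granule protease Ctsw, at 512 against 1 UMIs (log2 ratio 7.73, 5.24 to 13.03). Perforin stood at 1953 against 167 UMIs (log2 ratio 2.28, 2.05 to 2.51) and Gzmb at 5052 against 868 UMIs (log2 ratio 1.27, 1.16 to 1.37), so Cd4-positive cells held granzyme B as well. In RTT the same genes leaned the same way, with Klrd1 at 119 against 1 UMIs (log2 ratio 5.98, 3.47 to 11.30), Prf1 at 275 against 22 UMIs (log2 ratio 2.73, 2.10 to 3.43) and Gzmb at 687 against 81 UMIs (log2 ratio 2.17, 1.84 to 2.52). Of the cytotoxic granule list, 12 of 16 counted members were 2-fold or more higher with Cd8a in NTT and 8 of 11 in RTT, beside 6.27% and 16.0% of all genes. For PD-1 the intervals of the libraries did not overlap: Pdcd1 stood at 346 against 30 UMIs (log2 ratio 2.26, 1.72 to 2.84) in NTT and at 36 against 24 UMIs (log2 ratio -0.33, -1.11 to 0.48) in RTT. The deepest Cd8a-positive RTT cell held 30.6% of the UMIs of its class and 0 UMIs of Pdcd1, which lowers the RTT ratio. The ratio without this cell is not given, so its sign in RTT is not read.

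The Cd4-positive cells of both libraries carried genes known from regulatory T cells. Foxp3, the factor that defines those cells, was not analysed here. Helios (Ikzf2), a transcription factor of regulatory T cells, gave a UMI in 41 of 42 NTT and 15 of 18 RTT cells, and OX40 (Tnfrsf4) and GITR (Tnfrsf18), receptors they hold at high level, in every Cd4-positive cell of both libraries. CTLA-4 (Ctla4) gave a UMI in 37 of 42 NTT and 14 of 18 RTT cells, and the IL-2 receptor alpha chain (Il2ra) in 33 of 42 NTT and 12 of 18 RTT cells. Ikzf2 and Tnfrsf4 occurred together in 41 of 42 NTT and 15 of 18 RTT Cd4-positive cells, in 14 of 24 and 12 of 17 cells with neither coreceptor, and in 39 of 86 and 5 of 11 Cd8a-positive cells. Of the regulatory T-cell list, 5 of 7 counted members in NTT and 6 of 6 in RTT were 2-fold or more lower in Cd8a-positive than in Cd4-positive cells, beside 5.46% and 9.63% of all genes. In NTT 1 member, the coreceptor Nrp1, was higher with Cd8a, at 168 against 12 UMIs (log2 ratio 2.53, 1.69 to 3.52). Tnfrsf18 was not particular to Cd4-positive cells, with UMIs in 69 of 86 NTT and 10 of 11 RTT Cd8a-positive cells. It was also found in 19 of 25 NTT and 2 of 5 RTT TCR-negative cells. Tnfrsf4 gave a UMI in 51 of 86 NTT and 8 of 11 RTT Cd8a-positive cells. Macrophages outside Ctsk_Macro gave an Ikzf2 UMI in 4.64% and 3.62% and a Tnfrsf4 UMI in 2.23% and 0.241% of cells.

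Summed over the 8 measured genes of the regulatory T-cell list, the median cell with Cd4 stood at 10649 CPM (2467 to 23380.1) in NTT and 8661 CPM (2607 to 16329) in RTT, and the median cell with Cd8a at 2500.1 CPM (446 to 16454) and 1871 CPM (451 to 4353). The highest RTT cell with Cd8a lay below the median Cd4-positive cell of its library, and the ranges of the classes overlapped in both libraries. Between the libraries, Ikzf2 in Cd4-positive cells stood at 2487 CPM in NTT and 1677 CPM in RTT (log2 ratio -0.57, -0.82 to -0.32), Ctla4 at 1002 CPM in NTT and 499 CPM in RTT (log2 ratio -1.01, -1.48 to -0.56) and Tnfrsf18 at 1651 CPM in NTT and 1475 CPM in RTT (log2 ratio -0.16, -0.44 to 0.11). Of 6 counted members, 1 was 2-fold or more lower and 0 higher in RTT, beside 16.8% and 5.83% of all 3910 genes. The member past 2-fold was Ctla4. Over all lymphocytes 2 of 8 (Nrp1 and Lrrc32) were lower, with a median of -0.51, which was 0.14 when every cell weighed the same.

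**Figure D3:**
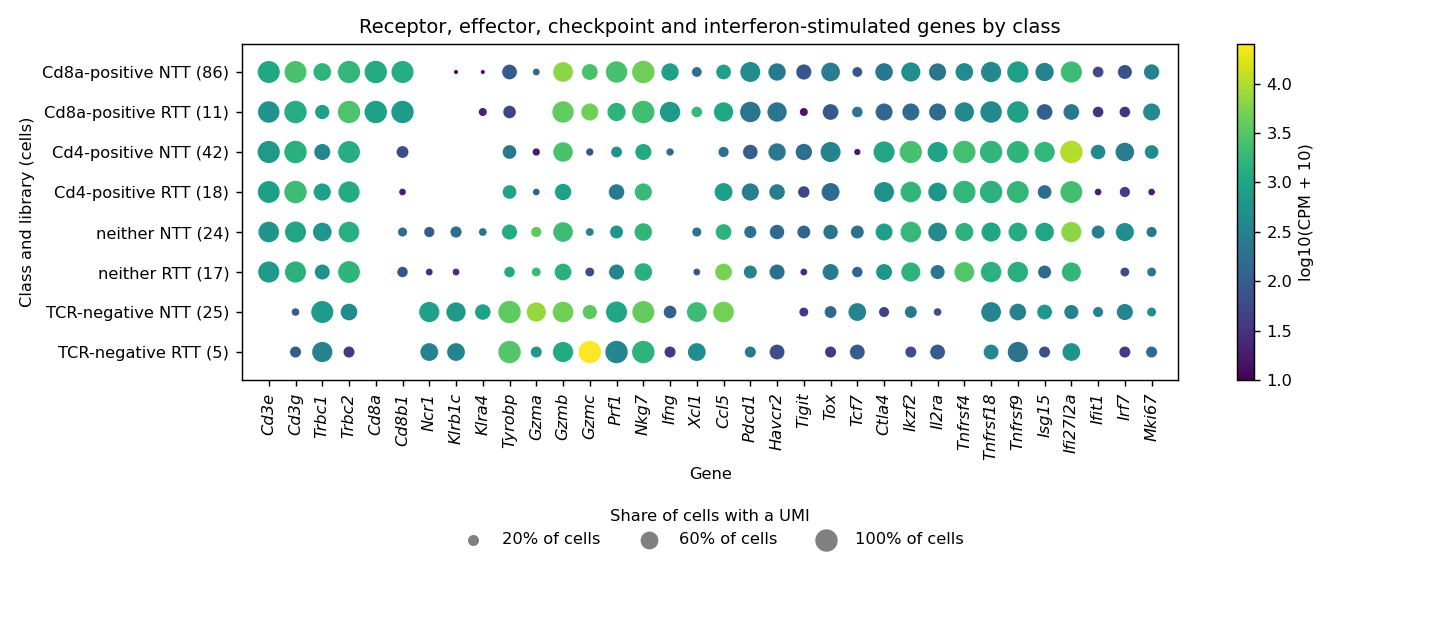
Each row is a class of lymphocytes in a library, with its number of cells, and each column a gene. The area of a dot is the percentage of cells with a UMI and its colour the summed level as log10(CPM + 10). The Cd8a-positive rows are bright at Gzmb, Prf1 and Nkg7, the Cd4-positive rows at Ikzf2, Tnfrsf4 and Tnfrsf18, and the TCR-negative rows at Tyrobp and Ncr1, and Isg15 and Ifit1 are darker, or Ifit1 without a dot, in the RTT row of each class than in its NTT row.

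Among the killing genes, Gzmb, Prf1 and Nkg7 stood at lower summed levels in RTT lymphocytes. For Gzmb, the lowest, median and highest cell stood at 0, 2277 and 31360.4 CPM in NTT and at 0, 683 and 15610.2 CPM in RTT. Summed over the library, Gzmb was 5013 and 2438 CPM (log2 ratio -1.04, -1.14 to -0.94). Cells of both libraries began at 0 and their ranges overlapped, while the median and the highest cell stood lower in RTT.

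The libraries also differed in their make-up of classes, so values within the classes are given next. In these the deepest RTT cell held 30.6% of the UMIs of the 11 Cd8a-positive RTT cells, and the cell with most UMIs of a gene held 32.5% of the class UMIs of Gzmb, 39.6% of Prf1 and 30.6% of Pdcd1. The deepest cell held only 44 of the 687 class UMIs of Gzmb, so it lowers the RTT level of Gzmb in this class. Class levels without the deepest cell are not given, and the size of the differences below depends on it. In Cd8a-positive cells Gzmb stood at 6406 CPM in NTT and 3868 CPM in RTT (log2 ratio -0.73, -0.84 to -0.61), and it was found in 65 of 86 NTT and 10 of 11 RTT cells. Prf1 stood at 2476 CPM in NTT and 1548 CPM in RTT (log2 ratio -0.68, -0.86 to -0.49) and Nkg7 at 4482 CPM in NTT and 2319.7 CPM in RTT (log2 ratio -0.95, -1.10 to -0.80). Thinned to 2000 UMIs, with shallower cells left out of each class, 73.8% of 80 cells in NTT and 100% of 10 cells in RTT held Gzmb, and every Cd8a-positive cell of both libraries held Nkg7, so no lower share of cells with either gene was detectable with 11 RTT cells. Gzmb together with Prf1 was found in 64 of 86 NTT (74.4%) and 6 of 11 RTT cells (54.5%, 23.4 to 83.3), with all UMIs counted. In Cd4-positive cells Gzmb stood at 2659 CPM in NTT and 859.7 CPM in RTT (log2 ratio -1.63, -1.98 to -1.30), whereas Nkg7 stood higher in RTT, at 1130.3 CPM in NTT and 1953 CPM in RTT (log2 ratio 0.79, 0.53 to 1.05). Of the 17 members of the cytotoxic list over all lymphocytes, 3 (Gzma, Gzmb and Gzmf) were 2-fold or more lower and 4 (Gzmc, Gzmd, Gzmk and Lamp1) higher in RTT. The background over all 5416 genes with 50 or more UMIs was 10.1% lower and 3.86% higher. List members were counted from 20 UMIs, and over all 7767 genes with 20 or more UMIs the shares were 13.2% and 5.25%. The median of the list was -0.34 against -0.072 over all genes with 50 or more UMIs. The higher value of Gzmd turned to -0.54 without the cell of each library that held most of its UMIs, and that of Gzmc fell from 1.36 to 0.93, no longer past 2-fold, and to 0.48 over TCR-positive cells. For Gzma, a gene of the TCR-negative cells, the log2 ratio was -1.16 over all lymphocytes and 0.21 over TCR-positive cells.

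Cytokines and chemokines shared no direction, with 2 (Tnf and Ccl4) of 8 counted members 2-fold or more lower in RTT and 1 (Xcl1) higher, beside 10.1% and 3.86% of all genes. Interferon gamma (Ifng), the cytokine of activated killer cells, was held mostly by Cd8a-positive cells, with UMIs in 49 of 86 NTT and 9 of 11 RTT cells and at 877 CPM in NTT and 732 CPM in RTT (log2 ratio -0.26, -0.54 to 0.011). The deepest RTT cell held 30.6% of the UMIs of this class but 1 of its 130 Ifng UMIs, which lowers the RTT level. No direction is read for Ifng. The inflammatory chemokine Ccl4 stood at 2342 CPM in NTT and 507 CPM in RTT in Cd8a-positive cells (log2 ratio -2.21, -2.53 to -1.90), and Ccl3 at 1452 CPM in NTT and 749 CPM in RTT (log2 ratio -0.96, -1.23 to -0.70). Ccl5, a further chemokine of activated T cells, was higher in RTT in Cd4-positive cells, at 168 CPM in NTT and 775 CPM in RTT (log2 ratio 2.20, 1.68 to 2.73), with UMIs in 7 of 42 NTT and 11 of 18 RTT cells. Macrophages also hold Ccl5, with a UMI in 19.9% of NTT and 7.46% of RTT cells outside Ctsk_Macro, and 1 NTT and 3 RTT cells of the Cd4-positive class held 10000 CPM or more of macrophage markers. Without these cells, an alternative chosen after seeing the data, the log2 ratio of Ccl5 was 2.16 (1.6 to 2.73), with UMIs in 6 of 41 NTT and 10 of 15 RTT cells. At 2000 UMIs, with those cells kept, it was found in 12.5% of 40 cells in NTT and 57.1% of 14 cells in RTT (44.6 percentage points, 16.6 to 67.2). Tnf, the cytokine TNF, had 31 UMIs in 19 NTT cells and 0 in RTT, which against a floor of 3 UMIs puts the log2 ratio at -1.52 or lower. Xcl1 shows how far 1 cell can carry a sum: it stood at 293 and 960.2 CPM, but 311 of the 354 RTT UMIs came from 1 Cd8a-positive cell, and without the leading cell of each library the log2 ratio went from 1.71 to -1.13.

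PD-1 was found in most Cd8a-positive cells of both libraries. Its gene Pdcd1 gave a UMI in 67 of 86 NTT and 9 of 11 RTT cells, against 0.344% and 0.456% of macrophages outside Ctsk_Macro, and PD-1 together with TIM-3 (Havcr2) in 42 of 86 and 7 of 11. These macrophages gave a Havcr2 UMI in 37.3% and 30.5% of cells, so Havcr2 is not particular to T cells here. In level, Pdcd1 stood at 439 CPM in NTT and 203 CPM in RTT in Cd8a-positive cells (log2 ratio -1.11, -1.65 to -0.62) and at 91.9 CPM in NTT and 255 CPM in RTT in Cd4-positive cells (log2 ratio 1.47, 0.63 to 2.29), with opposite signs in the classes. The RTT level in Cd8a-positive cells is lowered by the deepest cell, with 30.6% of the class UMIs and 0 of its 36 Pdcd1 UMIs. How much of the difference remains without that cell is not given. At 2000 UMIs the share of Cd8a-positive cells with Pdcd1 was 51.2% of 80 cells in NTT and 50% of 10 cells in RTT, with an interval of the difference from -29.7 to 27.2 points. Tox, a factor of exhausted T cells, stood at 256 CPM in NTT and 73.2 CPM in RTT (log2 ratio -1.81, -2.74 to -1.0), and TIGIT at 71.0 CPM in NTT and 5.63 CPM in RTT (log2 ratio -3.66, -8.99 to -1.12) with UMIs in 36 of 86 NTT and 1 of 11 RTT cells. Tigit was lower in Cd4-positive cells too (log2 ratio -1.91, -3.84 to -0.47), and over all lymphocytes it had 122 and 6 UMIs (log2 ratio -2.50, -3.97 to -1.33).

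Of the 18 members of the checkpoint and exhaustion list, 4 (Lag3, Tigit, Tox and Rgs16) were 2-fold or more lower in RTT and 1 (Eomes) higher, with a median of -0.42, beside 10.1% and 3.86% of all genes. 4-1BB (Tnfrsf9), a costimulatory receptor of T cells that have met antigen, differed little, at 1013 and 1104 CPM (log2 ratio 0.12, -0.039 to 0.29). TCF-1 (Tcf7), the factor of stem-like T cells, gave a UMI in 13 of 86 NTT and 2 of 11 RTT cells with Cd8a, and together with Pdcd1 in 10 of 86 and 1 of 11. Its higher summed level in RTT (log2 ratio 0.54, 0.012 to 1.06 over all lymphocytes) rested on 1 cell with 71.1% of the RTT UMIs, and turned to -0.81 without the leading cells. The CD8 T-cell signatures used in the study gave 8 of 23 counted members 2-fold or more lower and 2 higher for effector memory, and 8 of 24 lower and 3 higher for precursor exhausted cells, beside the same shares of all genes. Their medians were -0.67 and -0.79, and within Cd8a-positive cells -0.68 and -0.70, against -0.10 over all genes of that class. The signatures share Cd8a, Nkg7, Ctsw, Gzmb and Prf1.

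Interferon-stimulated genes were the list with the lowest median in RTT lymphocytes among those of 8 or more counted members. Of its 28 members, 21 were 2-fold or more lower in RTT and 0 higher, with a median log2 ratio of -1.43 against -0.072 over all genes. Ifit1 and Ifit3 bind viral RNA and its sensors, and Isg15 is a ubiquitin-like protein. All are switched on through the interferon-stimulated response element in the promoter. The stretches of 160 bases before the RefSeq start of these genes (GRCm38.p6) are shown because their genes have some of the lowest ratios of the list, with matches to the core of that element, GAAANNGAAA or TTTCNNTTTC, in capitals. They lie at chr19:34640729-34640888 on the plus strand, chr19:34583369-34583528 on the plus strand and chr4:156200819-156200978 on the minus strand, each written 5′ to 3′ along its gene.
Ifit1: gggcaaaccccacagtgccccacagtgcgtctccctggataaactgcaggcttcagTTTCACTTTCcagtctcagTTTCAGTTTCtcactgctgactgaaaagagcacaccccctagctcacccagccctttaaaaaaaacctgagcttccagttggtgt
Ifit3: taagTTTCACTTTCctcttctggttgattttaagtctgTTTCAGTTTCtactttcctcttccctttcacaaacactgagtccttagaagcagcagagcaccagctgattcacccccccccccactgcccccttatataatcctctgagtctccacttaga
Isg15: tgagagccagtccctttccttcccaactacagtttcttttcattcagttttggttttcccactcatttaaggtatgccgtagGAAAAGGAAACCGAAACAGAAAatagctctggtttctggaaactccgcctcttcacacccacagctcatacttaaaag

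The Ifit1 stretch held 2 matches, which began 104 and 85 bases before the start, and the Ifit3 stretch 2, at 156 and 122 bases. The Isg15 stretch held 3 matches at 78, 72 and 66 bases that overlap into 1 run. Over both strands of the 250 bases before and 50 after the start, 12 of the 19 list members with a promoter in the table held a match (63.2%), as did 3.95% of the 9982 matrix genes with one and 3.44% of all 32851 promoters. A match describes letters in a window and not binding.

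Among all 3306 genes with 100 or more UMIs, Ifit3 had the lowest ratio, with 139 UMIs in 28 NTT cells and 1 in 1 RTT cell (log2 ratio -5.27, -10.59 to -2.77), and Ifit1 stood among the 8 lowest, with 215 UMIs in 43 NTT cells and 5 in 3 RTT cells (log2 ratio -3.58, -5.22 to -2.33). Another interferon-inducible gene among them was Ifitm1, a membrane protein that blocks virus entry, with 1096 UMIs in 130 NTT cells and 24 in 10 RTT cells (log2 ratio -3.67, -4.31 to -3.08). Isg15 was found in 115 of 178 NTT and 17 of 51 RTT cells. Its lowest, median and highest cell stood at 0, 207 and 9500.2 CPM in NTT and at 0, 0 and 1828 CPM in RTT, and its library sums at 737 and 111 CPM (log2 ratio -2.73, -3.22 to -2.28). Cells at 0 occurred in both libraries, and the median RTT cell was at 0. At 2000 UMIs, Isg15 was found in 46.4% of 140 cells with a receptor in NTT and 23.7% of 38 cells in RTT (-22.7 percentage points, -36.2 to -5.26).

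The classes differed in where this list stood, with Cd4-positive NTT cells highest. In NTT, 22 of 25 counted members were 2-fold or more lower in Cd8a-positive than in Cd4-positive cells, beside 5.46% of all genes. In RTT 4 of 5 were, beside 9.63%. Summed over the list, the median Cd4-positive cell stood at 26862 CPM (5098 to 101852) in NTT and 10143 CPM (6832 to 40635) in RTT, and the median Cd8a-positive cell at 7929 CPM (1602 to 41135) and 4966 CPM (1244 to 21938). Cells with neither coreceptor stood at 15074 CPM (2842 to 97536) and 11129 CPM (1965 to 24163), and TCR-negative cells at 7463 CPM (1329.5 to 32849) and 4564 CPM (2945 to 7629). The median was lower in RTT in each of the 4 classes, while the ranges of single cells overlapped in each. Much of the sum came from 1 member, Ifi27l2a. Without it the medians in NTT and RTT were 16154 and 8788 CPM in Cd4-positive and 5882 and 4840 CPM in Cd8a-positive cells. For cells with neither they were 12607 and 9013 CPM, and for TCR-negative cells 6103 and 3767 CPM. Of the counted members, 23 of 27 were 2-fold or more lower in RTT in Cd4-positive cells (median -2.11) and 10 of 24 in Cd8a-positive cells (median -0.81). The background was 16.8% and 17.6% of all genes, and whether the classes differ from each other was not tested.

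**Figure D4:**
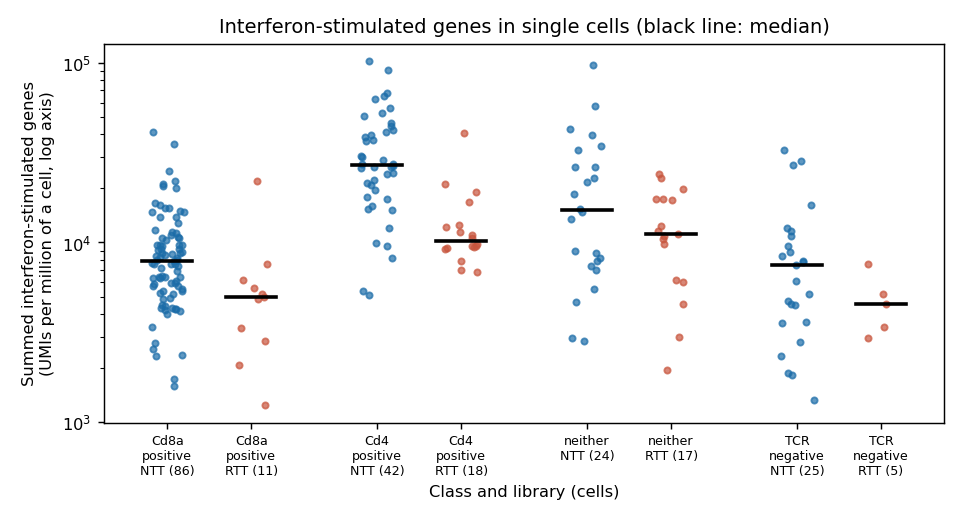
Each point is 1 lymphocyte, placed on a log axis by its summed CPM of the 28 interferon-stimulated genes, for each class in NTT (blue) and RTT (red) with the number of cells, and black lines are medians. The median is lower in RTT in each class, and the Cd4-positive NTT cells reach the highest values.

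Single members varied between the classes. Isg15 stood at 1734 CPM in NTT and 149 CPM in RTT in Cd4-positive cells (log2 ratio -3.54, -4.42 to -2.79) and at 319.5 CPM in NTT and 95.7 CPM in RTT in Cd8a-positive cells (log2 ratio -1.74, -2.54 to -1.03). With all UMIs counted it was found in 34 of 42 NTT and 6 of 18 RTT cells with Cd4, and at 2000 UMIs in 65% of 40 cells with Cd4 in NTT and 7.14% of 14 cells in RTT (-57.9 percentage points, -72.0 to -29.0), while for Cd8a-positive cells the shares were 35% of 80 cells and 40% of 10 cells and go against the levels, so no order is read from them. Ifi27l2a, the most abundant member after summing, stood at 10252 CPM in NTT and 2303 CPM in RTT in Cd4-positive (log2 ratio -2.15, -2.36 to -1.96) and 2106 CPM in NTT and 225 CPM in RTT in Cd8a-positive cells (log2 ratio -3.23, -3.72 to -2.77). IRF7, the regulator that amplifies type I interferon, had 202 UMIs in 85 NTT cells and 11 in 8 RTT cells (log2 ratio -2.35, -3.38 to -1.48). The surface proteins Ly6a, at 3259.6 and 3095 CPM (log2 ratio -0.075, -0.17 to 0.020), and Ly6e, at 1773 and 1730.5 CPM (log2 ratio -0.035, -0.16 to 0.092), had intervals that reach 0. Ifit and Ifi27l2 genes have close copies, so their counts carry that uncertainty.

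Other leukocytes of the same libraries allow a comparison. Over members with 50 or more UMIs, the median log2 ratio of the list was -1.42 in the lymphocytes (20 of 27 2-fold or more lower), -0.47 in monocytes (7 of 28), -2.18 in macrophages (26 of 28) and -2.24 in dendritic cells (26 of 28). Of all genes so counted, 10.1%, 8.50%, 7.57% and 8.36% were 2-fold or more lower in these populations. Isg15 also gave a UMI in 69.8% of NTT and 25.6% of RTT macrophages outside Ctsk_Macro, and the part of RNA from other cells in the lymphocyte values was not tested. The MHC class I presentation genes, which interferons also raise, differed less, with 1 of 13 (Nlrc5, the class I transactivator) 2-fold or more lower and a median of -0.54.

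The other genes at the low end were mostly receptors and adaptors of lymphocytes. Dapl1, a gene of less differentiated T cells, had 219 and 3 UMIs in NTT and RTT (log2 ratio -4.34, -6.63 to -2.78), and Lax1, an adaptor that restrains antigen receptor signalling, 98 and 2 UMIs (log2 ratio -3.77, -6.83 to -1.88). The Ly49 receptor Klra4 had 116 and 2 UMIs (log2 ratio -4.01, -7.07 to -2.13) and the lectin-like receptor Klri2 103 and 3 UMIs (log2 ratio -3.25, -5.56 to -1.67). The neutrophil chemokine Cxcl2 had 291 and 7 UMIs (log2 ratio -3.53, -4.86 to -2.47), of which 1 Cd8a-positive NTT cell held 194, and without the leading cells its log2 ratio was -3.16. Of the list of NK receptors and regulators, 10 of 22 members were 2-fold or more lower and 2 (Eomes and Fcgr3) higher in RTT, beside 10.1% and 3.86% of all genes and with a median of -0.81. Over TCR-positive cells alone, 5 of 17 counted members were lower and 2 higher, with a median of -0.27. Fcgr3 was short of 2-fold in these, at 47.0 CPM in NTT and 90.4 CPM in RTT, and 21 of its RTT UMIs lay in TCR-negative cells. Klrd1 was also lower within Cd8a-positive cells, at 1596 CPM in NTT and 670.0 CPM in RTT (log2 ratio -1.25, -1.54 to -0.98), as was Il2rb, the receptor chain for IL-2 and IL-15, at 1087 CPM in NTT and 338 CPM in RTT (log2 ratio -1.69, -2.09 to -1.31).

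At the high end stood genes of macrophages. Over all 5416 genes, 209 were 2-fold or more higher in RTT and 549 lower. The 8 highest ratios with 100 or more UMIs belonged to the chemokine Ccl12, Ms4a7, the complement genes C1qa, C1qc and C1qb, fibronectin (Fn1), Aif1 and the Fc receptor Fcgr2b, all known from macrophages, with log2 ratios from 2.42 to 4.99. C1qa had 55 and 300 UMIs, of which 1 TCR-negative RTT cell held 179, and without the 4 RTT cells at 1000 CPM or more its log2 ratio went from 4.30 to -0.056. Single cells weigh more in RTT in general: 1 cell held over 50% of the RTT UMIs for 136 of the genes with 50 or more UMIs (2.51%), and 1 cell over 50% of the NTT UMIs for 7 (0.129%). Without the leading cells, 139 of the 209 higher genes and 545 of the 549 lower genes stayed past 2-fold.

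**Figure D5:**
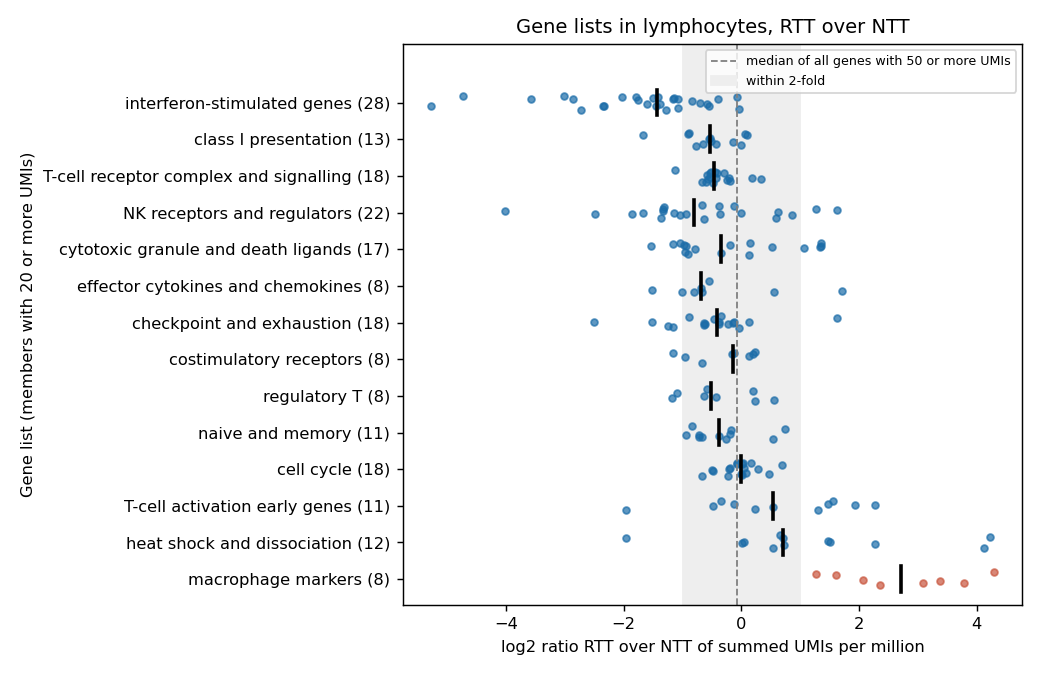
Each point is the log2 ratio of RTT over NTT of a gene's summed CPM in the lymphocytes, grouped by gene list with the number of members of 20 or more UMIs, and black bars are list medians. The interferon-stimulated genes lie left of the median of all genes (dashed line), with 21 of 28 outside the grey band of 2-fold, and the 8 macrophage markers (red) lie right of it.

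The T-cell receptor genes themselves stayed within 2-fold. Of the 18 members of the receptor and signalling list, 1 (Sit1) was 2-fold or more lower, with a median of -0.47, and over the mean of single cells in place of summed UMIs the median was -0.019. Genes that a receptor signal switches on early, such as Fos, Jun and Cd69, were 2-fold or more higher for 5 and lower for 1 (Egr1) of 11 members, with a median of 0.54, beside 3.86% and 10.1% of all genes. The deepest RTT cell held 56 of the 75 RTT UMIs of Cd69, and without the deepest cell of each library the list median was 0.14. The heat shock and dissociation genes, which tissue digestion also raises and which share Fos, Jun, Junb and Egr1 with that list, had 5 of 12 higher, beside the same 3.86%, and a median of 0.71. The part of tissue handling in either list was not tested.

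No proliferation gene of the list was past 2-fold over all lymphocytes. This held for all 18 cell cycle genes counted, with a median of -0.0029. In Cd4-positive cells 7 of 18 were 2-fold or more lower in RTT (median -0.56), beside 16.8% of all genes, and 5 of 18 without the cells with macrophage markers named above. Mki67, the Ki-67 antigen of dividing cells, had 138 UMIs in 14 of 42 NTT cells and 1 in 1 of 18 RTT cells. In Cd8a-positive cells, where 7.96% of all genes were higher and 17.6% lower, 2 were higher and 1 lower (median 0.36), and Mki67 had 241 UMIs in 37 of 86 NTT cells and 72 in 6 of 11 RTT cells, with 33 UMIs from the deepest cell. Thinned to 2000 UMIs, Mki67 was found in 22.5% of 40 cells with Cd4 in NTT and in 0 of 14 in RTT, where 0 cells allow a share of up to 23.2% by the exact interval (-22.5 percentage points, -37.5 to 1.32), and in 22.5% of 80 cells and 40% of 10 cells with Cd8a (17.5 percentage points, -7.86 to 47.3). With so few RTT cells the difference in Cd8a-positive cells was not detectable.

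The remaining lists are given beside the same shares of all genes, 10.1% lower and 3.86% higher. The costimulatory receptors had 1 of 8 members (Cd28) 2-fold or more lower and a median of -0.15. The naive and memory genes had none past 2-fold of 11, with a median of -0.38. The trafficking and residency genes had 2 of 14 lower (Itga1 and Itgal) and 1 higher (Cd69), the cytokine receptors 3 of 17 lower (Il2rb, Il12rb2 and Il18rap), the T-lineage factors 3 of 9 lower (Ets1, Tox and Ikzf1), and the glycolysis and hypoxia genes 1 of 9 lower (Bnip3). Prostaglandin E2 acts on T cells through its receptors EP2 and EP4, encoded by Ptger2 and Ptger4. Ptger2 had 26 and 10 UMIs (log2 ratio 0.47, -0.75 to 1.57) and Ptger4 27 and 16 (log2 ratio 1.09, 0.10 to 2.04), too few to describe by class. Of the gamma-delta and innate lymphoid list, 4 of 5 counted members (Trdc, Il1rl1, Rora and Calca) were 2-fold or more lower. The gamma-delta receptor gene Trdc had 40 UMIs in 6 NTT cells and 0 in RTT, and Calca, a neuropeptide gene, 60 in 15 NTT cells, 12 of them with Cd8a, and 0 in RTT.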

How the data were processed

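Sorted leukocytes, 1 tumour per group, were sequenced as droplet 3′ single-cell RNA libraries. According to the study's methods and the submitters' processing notes, the authors aligned and counted reads with Cell Ranger 6.1.1 against mm10, kept filtered barcodes above a minimum of detected genes with limits on mitochondrial and ribosomal reads, and clustered and named the cells jointly with other experiments. The deposited matrix holds their raw UMI counts for 12584 genes, those shared with the other experiments and without ribosomal and mitochondrial genes, and the deposited cell table holds the library and population names. How doublets were treated is not given in the sources used here, and no doublet caller was run.

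The label NK_cells gave 178 NTT and 51 RTT cells of 2975 and 4840. TCR-positive cells had 1 or more UMIs of Cd3e, Cd3d and Trac summed, and were split by Cd8a and Cd4. UMIs were summed per library and class and divided by the summed UMIs of those cells (CPM). With 1 library per group no test was run. A gene was called at 2-fold or more among genes with 50 or more UMIs over both sides. Between the libraries within Cd8a-positive or Cd4-positive cells, genes with 20 or more UMIs were used. A list member was counted with 20 or more UMIs between the libraries, and with 50 or more between classes of a library. A side at 0 was set to a floor of 3 UMIs over the class. Shares were also computed with each cell thinned at random to 2000 UMIs. UMIs are molecules, and all intervals cover counting error only. Named genes were the 8 with the largest ratio each way between the libraries and between TCR-positive and TCR-negative NTT cells (100 or more UMIs), the 15 with the largest fold against other cells (200 or more UMIs), and list members. Alternatives were a mean of per-cell CPM, TMM scaling, other filters on genes and cells, other definitions of TCR-positive, other depths, and leaving out cells with macrophage RNA, the deepest cells or each gene's leading cells. The members and lists were chosen with earlier results of these data known. The computation was tested on simulated data. Gene positions are those of GENCODE M21 (GRCm38), and promoters those of RefSeq (GRCm38.p6). Results on a few list members are not reported here. Tools were Python 3.11.15, numpy 2.4.6, scipy 1.17.1, pandas 2.3.3, matplotlib 3.10.9, R 4.3.3 and, for TMM factors, edgeR 4.0.16.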

Additional observations from a re-analysis of the deposited data

Results flagged for a closer look

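A signal of T-cell receptor RNA stood outside the lymphocytes. Among the macrophages that the authors named Ctsk_Macro, 23.2% of the RTT cells (65 of 280) held a UMI of Trac, against 0.107% of the other RTT macrophages. Of these cells, 8 held 3 or more Trac UMIs, and the highest held 4. Cd3e, Cd3d, Cd3g and Trbc1 were at 0 UMIs in them. The cause was not tested.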

How the results depend on the processing

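Of the values on single genes, 436 stayed within their intervals, 124 moved past them and 19 changed sign over the alternatives, and of the main values 136 stayed and 29 moved. The alternatives that leave out the deepest or the leading cells, leave out cells with macrophage or neutrophil RNA within a class, or count Cd8b1 with Cd8a, were chosen after seeing the data. No paired analysis was possible because each group holds 1 library, and for the same reason no library could be left out.

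Without cells at 1000 CPM or more of C1qa among all sorted cells, lymphocytes were 9.76% of NTT and 3.67% of RTT cells, and among cells with 1500 or more detected genes 0.629% of RTT cells. The share with a receptor UMI was 99.4% and 98.0% with Cd3g, Trbc1 and Trbc2 added, the NTT share with Cd8a was 65.4% with Cd8b1 counted, and the shares with Cd4 were 17.3% and 16.7% at 2000 UMIs. Genes 2-fold lower in RTT numbered 94 with 200 or more UMIs and 1023 with 20 or more, against 549, and genes higher 36 and 408, against 209, as fewer or more genes entered. With TMM scaling, which moved each log2 ratio by 0.030, they numbered 510 and 225. Between TCR-positive and TCR-negative RTT cells, genes higher and lower numbered 93 and 181 without the cells with C1qa, against 302 and 86, and genes lower 184 by the mean of per-cell CPM. That mean gave list medians of -0.019 for the T-cell receptor genes, 0.14 for regulatory T, -0.43 for glycolysis and 0.54 for heat shock. Without the deepest cells the medians were -1.05 for the T-lineage factors, 0.14 for early activation and 0.55 for heat shock. Among TCR-positive cells, the share with Isg15 in NTT was 68.6% unthinned and 36.6% at 1000 UMIs, with Gzmb in RTT 43.5% at 1000 UMIs, with Pdcd1 in NTT 58.8% unthinned and 23.5% at 1000 UMIs and in RTT 52.2% unthinned, and with Mki67 in NTT 36.6% unthinned.

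Log2 ratios changed sign as follows. The value of C1qa was -0.056 without the cells with C1qa, that of Gzma 0.21 in TCR-positive cells, and that of Tnfrsf4 -0.055 among cells with 1500 or more genes. Without the leading cells they were -0.54 for Gzmd, -1.41 for Gzme, -1.13 for Xcl1 and -0.81 for Tcf7, and for Tcf7 -1.05 without the deepest cells. By the mean of per-cell CPM they were -0.077 for Xcl1, 0.36 for Pdcd1, 0.080 for Ctla4, -0.54 for Tcf7, 0.51 for Il7r, 0.019 for Cd3g, 0.021 for Cd3e, 0.11 for Cd3d, 0.068 for Trac, 0.21 for Ikzf2 and 0.27 for Cxcr6. Beyond the cells and genes that an alternative leaves out, the cause was not tested. With 51 RTT cells, 11 of them with Cd8a, depth and cell number limit every RTT share.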

Other observations

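The TCR-positive cells without Cd8a or Cd4 held the highest levels of Ccl5 in RTT, the chemokine that draws T cells and monocytes, at 1569 CPM in NTT and 5033 CPM in RTT with UMIs in 11 of 24 NTT and 9 of 17 RTT cells. A single cell held 34.8% of the RTT UMIs. In this class Gzmb stood at 2178 CPM in NTT and 1467 CPM in RTT (log2 ratio -0.57, -0.95 to -0.20) and Nkg7 at 1670.2 CPM in NTT and 1433 CPM in RTT (log2 ratio -0.22, -0.62 to 0.17), while Ifng, the cytokine of killer cells, was at 0 UMIs in both libraries. The median depth of this class was the lowest of the TCR-positive classes in both libraries. It also held cells with the NK receptor gene Klrb1c, 5 of 24 in NTT and 1 of 17 in RTT. Their part in these values was not tested.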
